A study of Homo sapiens with 6 samples.

Results

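Protein-coding genes that consist of 1 exon were followed in HCT116 cells, an epithelial line from a human colorectal carcinoma, after 16 h of auxin and after DMSO, the solvent control. In GENCODE release 29, 967 of the 19969 protein-coding genes have 1 exon in every annotated transcript and lie outside the mitochondrial chromosome. Leaving out 67 of them by symbol (names that begin with HIST, H1F, ZNF, HSPA, JUN, IER2, HEXIM or MARS2) gave 900 genes, and 257 of these had at least 10 expected counts in at least 3 of the 6 libraries. These 257 genes, out of 58780 human genes in the tables, are the single-exon genes described here. The other 643 were under that minimum, and 434 single-exon genes had 0 counts in all 6 libraries. At the limit, OR2D2, ANKRD63 and SLC25A2 had a third-highest count of 10 and were kept, and GAS1, OR2B6 and PPP1R3G had a third-highest count of 9 and were not.

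There were 3 biological replicates of each group, all of the same cell line. Auxin is a plant hormone used to make cells destroy a protein fused to a degron tag, and the labels name neither the protein nor a tagged or untagged clone. Auxin and any loss of the protein therefore cannot be told apart, and whether the 3 replicates of a group come from separate clones is not stated. The title of the series concerns nuclear speckles, the bodies rich in splicing factors, and the networks around them. Total RNA was depleted of ribosomal RNA and sequenced from stranded paired-end libraries.

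Most human mRNAs are made by cutting introns out of a longer transcript, and splicing leaves protein complexes on the mRNA that help to export it and to protect it. Genes without introns skip that step. Their mRNAs reach the cytoplasm through the export adaptors of the TREX complex and through 3′ end formation, and many of these genes arose when a processed mRNA was copied back into the genome. The group includes G protein-coupled receptors, clustered protocadherins, CEBP, SOX and forkhead transcription factors, and retrocopies such as PCBP1.

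Library totals ran from 234037969 to 625895062 expected counts, which are estimated numbers of reads, and replicate 1 was the deepest of both groups. The single-exon genes took 0.332% to 0.381% of a library's counts. The epithelial label was checked against 8 markers, and all 8 were at 1 CPM, a count normalised to the library's size, or more in every library. Of 16 markers of blood, endothelial, fibroblast, neuronal and liver cells, 14 stayed below 1 CPM in every library. The other two were SYT1, at 125 to 149 CPM, and COL1A1, at 1.21 to 5.14 CPM. The summed epithelial markers ran from 2908 to 3276 CPM in DMSO and from 3765 to 4043 CPM after auxin, a sum that rests mainly on the keratins KRT8, KRT18 and KRT19. Of its 3 claudins CLDN3, itself a single-exon gene, was not called (adjusted p = 0.838), while CLDN7 fell from 107 to 8.70 CPM in mean (log2 fold change -3.62, edgeR adjusted p = 1.54e-06) and CLDN4 from 87.2 to 72.3 CPM (-0.27, adjusted p = 0.0223). The part of these shifts in the results below was not tested.

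The base composition of these genes carries the main comparison below, so the first 90 coding bases of 4 of them are shown. KCNF1 rose, and AJM1, PROB1 and SPIN4 fell. Coordinates are on GRCh38 from GENCODE release 29, each sequence reads 5′ to 3′ in the sense of the gene, and capitals mark the start codon.
KCNF1, chr2:10912427-10912516, plus strand: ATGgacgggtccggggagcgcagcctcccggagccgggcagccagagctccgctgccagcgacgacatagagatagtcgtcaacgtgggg
AJM1, chr9:136844415-136844504, plus strand: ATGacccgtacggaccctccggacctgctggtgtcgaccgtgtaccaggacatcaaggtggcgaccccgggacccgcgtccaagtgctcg
PROB1, chr5:139394992-139395081, minus strand: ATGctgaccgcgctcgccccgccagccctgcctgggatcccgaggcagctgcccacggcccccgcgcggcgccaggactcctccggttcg
SPIN4, chrX:63350730-63350819, minus strand: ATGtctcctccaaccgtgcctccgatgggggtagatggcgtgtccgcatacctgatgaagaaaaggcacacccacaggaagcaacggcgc
The whole transcripts of KCNF1, AJM1 and PROB1 hold 67.0%, 72.7% and 66.0% G and C. SPIN4, with 37.4%, is far poorer, although its first 90 coding bases hold 58.9%. The median over the single-exon genes was 52.6% (255 genes with a sequence), and over genes with 2 or more exons that passed the same count minimum it was 48.8%.

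Auxin raised 74 and lowered 38 of the 251 single-exon genes that could be tested, with an adjusted p under 0.05 by edgeR's quasi-likelihood test over all 19725 genes tested. That is 44.6% called, against 52.3% of all tested genes. Higher calls made up 29.5% of the single-exon genes and 25.4% of all genes, and lower calls 15.1% and 26.9%. Losses of at least 2-fold were few: 7 single-exon genes (2.79%) against 13.3% of all genes. Gains of at least 2-fold were made by 20 single-exon genes (7.97%), against 6.55% of all genes. All values are relative to a library's total, so fewer cells or less RNA per cell cannot be told apart or seen. The median log2 fold change was 0.16 over the single-exon genes and 0.02 over all genes. The CPM ranges of the groups did not overlap for 130 single-exon genes (51.8%), against 60.3% of all genes. With the replicate number as a block, 103 single-exon genes were higher and 54 lower, which is 45 calls more and none fewer, while the share called among all genes rose to 69.9% (35.5% higher and 34.4% lower). Upper-quartile factors gave 89 higher and 26 lower, and library size alone 52 and 40, so the balance of directions moved with the scaling: 77.4%, 56.5% and, as reported, 66.1% of the calls were higher. The counts and medians are descriptions, and no test set the single-exon genes against the others.

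Among the genes most rich in G and C, the single-exon genes and the others parted. Of 114 single-exon genes with a GC content of at least 55%, 28 were higher and 16 lower, with a median log2 fold change of 0.08 (quartiles -0.32 and 0.52). Of 4266 protein-coding genes with 2 or more exons in the same GC range, 522 were higher and 2444 lower, and their median was -0.67 (quartiles -1.67 and -0.0033). Losses of at least 2-fold were called for 4 of the 114 single-exon genes (3.51%) and for 1683 of the 4266 others (39.5%). Below a GC content of 45% the medians were 0.12 for 72 single-exon genes and 0.13 for 5056 others, and 4.17% and 2.93% were lower at least 2-fold. In between, from 45% to under 55%, the medians were 0.30 and 0.11. With offsets corrected for GC content, which centre genes of like GC content together, the GC-rich medians became 0.69 for the single-exon genes and -0.11 for the others, so the gap remained but which class lay near 0 depended on the scaling. The GC-rich single-exon median was -0.00072 without auxin replicate 1 and 0.17 without DMSO replicate 1. This division by GC content and exon number was drawn after values had been seen, and the difference was not tested.

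**Figure D1:**
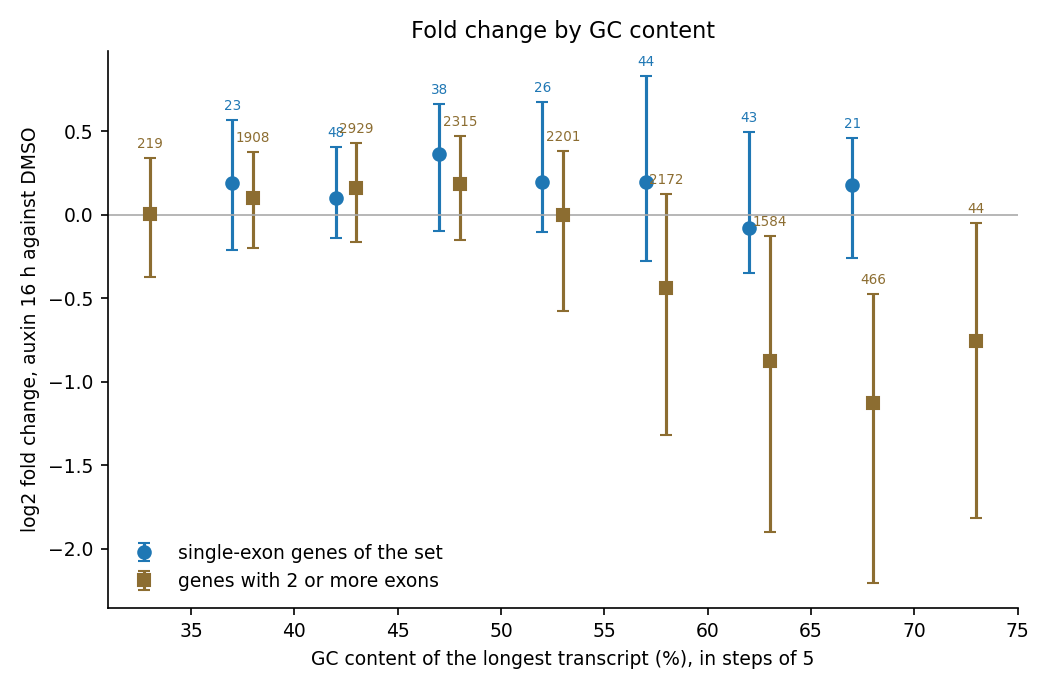
Median log2 fold change (auxin 16 h against DMSO, vertical axis) by the GC content of the longest annotated transcript (horizontal axis, steps of 5 percentage points). Circles are the single-exon genes, squares are genes with 2 or more exons, bars run from the lower to the upper quartile, and printed numbers count the genes tested; steps with under 20 genes are left out. From 65% to under 70% GC the medians are 0.18 and -1.13.

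The gap in GC-rich genes was present in each same-numbered pair of libraries. From 55% GC upward, the median log2 ratio of auxin to DMSO over the single-exon genes was 0.10, -0.03 and 0.10 in replicates 1, 2 and 3. Over genes with 2 or more exons it was -0.58, -0.69 and -0.61. Thus the 3 medians of one class and the 3 of the other did not overlap. The pairs hold the same 6 libraries in which the division was drawn, so they are not separate evidence for it. The data also do not tell numbers 2 and 3 apart as pairs. Replicates 2 and 3 alone gave medians of 0.07 and -0.71.

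The shares of losses in GC-rich genes are given by level as well, without a test. Among genes with a mean of 1 to under 10 CPM, 2 of 37 single-exon genes (5.41%) and 48.5% of 1454 others were lower at least 2-fold. At 10 CPM and above, none of 27 single-exon genes and 36.7% of 1845 others were. Below 1 CPM the shares were 4.00% of 50 and 31.02% of 967. The 65 GC-rich single-exon genes that overlap no other annotated gene on either strand had a median of -0.05, with 3 (4.62%) lower at least 2-fold. The genes with 2 or more exons were not restricted in that way.

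The share of losses climbed with the number of exons in GC-rich genes. Losses of at least 2-fold were called for 11.5% of 208 GC-rich genes with 2 exons and 21.9% of 913 with 3 to 5 exons. The share was 35.8% of 1298 with 6 to 10 exons and 53.8% of 1847 with over 10 exons. The medians of these 4 classes were -0.17, -0.22, -0.60 and -1.18, against 0.08 in the single-exon genes. From 45% to under 55% GC the same 4 classes climbed to lower shares, at 4.49%, 5.86%, 8.56% and 11.9%, against 0% of 64 single-exon genes. Below 45% GC the 4 classes ran from 2.09% to 3.69% with no such climb. Single-exon genes left out by symbol, which include histone genes, are a separate case: of 30 with a GC content of at least 55%, 4 were higher and 12 lower, and 6 (20.0%) were lower at least 2-fold. The comparison thus covers the 257 genes of the set and not every gene of 1 exon.

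**Figure D2:**
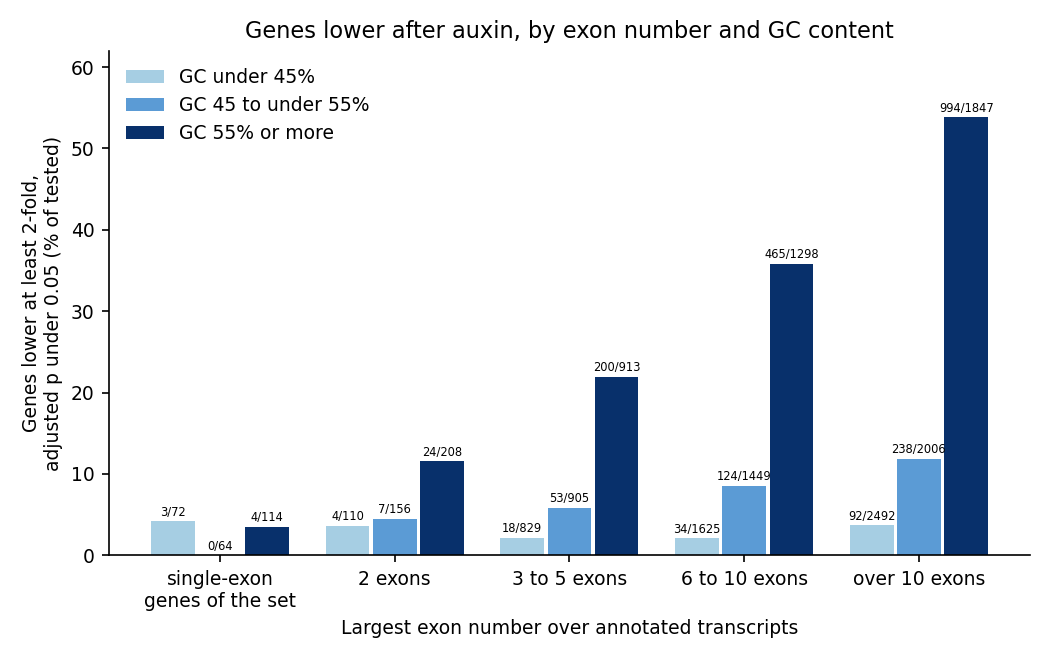
Share of tested protein-coding genes called lower at least 2-fold after auxin (vertical axis, percent) by the largest exon number over annotated transcripts (horizontal axis) and GC content (shades). Numbers above the bars are genes lower over genes tested. The bar for GC-rich single-exon genes stands at 3.51% and that for GC-rich genes with over 10 exons at 53.8%.

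Of the 114 GC-rich single-exon genes 44 were called (38.6%) and 70 were not. Of those not called, 3 with high levels are given library by library. SFN, the 14-3-3 sigma protein of epithelial cells and the cell cycle arrest after DNA damage (62.8% GC), was at 297, 281 and 306 CPM in DMSO and 252, 252 and 285 CPM after auxin. One auxin library lay above the lowest DMSO library, and SFN was not called (edgeR log2 fold change -0.16 ± 0.07, SE; adjusted p = 0.0985, and adjusted p = 0.00267 with the replicate block). PCBP1, a poly(C)-binding protein that acts in splicing, translation and iron delivery (55.2% GC), was at 213, 216 and 224 CPM in DMSO and 227, 227 and 230 CPM after auxin. The groups did not overlap, but the log2 fold change was 0.07 ± 0.05 (SE, by edgeR; adjusted p = 0.328). RHOB, a small GTPase of endosomes and the actin cytoskeleton (57.3% GC), was at 76.3, 78.3 and 78.4 CPM in DMSO and 73.0, 76.6 and 74.8 CPM after auxin, with overlapping groups (log2 fold change -0.05 ± 0.05, SE; edgeR adjusted p = 0.389). With offsets corrected for GC content all 3 were called higher, SFN at 0.60 (adjusted p = 0.00963), PCBP1 at 0.27 (adjusted p = 0.0203) and RHOB at 0.31 (adjusted p = 0.0235). SFN was called lower with library size alone (-0.25, adjusted p = 0.0334), and PCBP1 higher with upper-quartile factors (0.19, adjusted p = 0.0113).

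The gene list fixed for intronless mRNA processing did not move one way. It held 21 genes of mRNA export and its SR protein adaptors and 7 of cleavage and polyadenylation, none of them a single-exon gene of the set. Of the 28, 9 were higher, 8 lower and 11 not called, with a median log2 fold change of 0.06. Among all tested genes 25.4% were higher and 26.9% lower. Higher were POLDIP3, an export adaptor (0.61 ± 0.05, SE; edgeR adjusted p = 6.14e-05), and CHTOP, another TREX subunit (0.43 ± 0.05, SE; adjusted p = 0.000317). Lower were DDX39A, an RNA helicase of export, which fell from 23.5 to 4.42 CPM in mean, and THOC6, a THO subunit, which fell from 4.604 to 0.821 CPM. DDX39B, the close relative of DDX39A, was not called (114 and 99.1 CPM, adjusted p = 0.135). Of the 7 genes of cleavage and polyadenylation, 2 were higher, CPSF2 (0.46) and FIP1L1 (0.54). Another 3 were lower, CPSF1 (-2.20), CPSF4 (-0.98) and PABPN1 (-0.93).

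Among the rises, 3 genes with larger counts are given library by library. B3GALT6, which adds a galactose to the linker of proteoglycan sugar chains, was at 10.8, 8.63 and 7.64 CPM in DMSO and 25.01, 19.9 and 20.3 CPM after auxin. Every auxin library was above every DMSO library (log2 fold change 1.27 ± 0.15, SE; edgeR adjusted p = 0.000407). TMEM185B, a membrane protein and retrocopy of an X-linked gene, rose from 35.6, 33.9 and 31.6 CPM to 69.3, 64.3 and 61.5 CPM (0.95 ± 0.07, SE; adjusted p = 4.47e-05). SOX4, a transcription factor of progenitor and tumour cells, was not among the 12 largest rises and rose from 64.1, 78.9 and 72.4 CPM to 121, 137 and 133 CPM (0.86 ± 0.09, SE; adjusted p = 0.000208). These 3 genes had groups that stood well apart, but the naming rule asked for groups that do not overlap in B3GALT6 and TMEM185B.

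The rest of the 12 largest rises by the naming rule (called, at least 1 CPM in mean, groups that do not overlap) ran from 0.97 to 1.40 on the log2 scale. They included KCNF1, a modifying subunit of voltage-gated potassium channels (1.26 ± 0.15, SE), RIOX1, an oxygenase that acts on a ribosomal protein (1.19 ± 0.15), and KTI12, a partner of Elongator in tRNA modification (1.09 ± 0.12). KTI12 shares exon bases with other genes on its strand, as given below, so its rise is uncertain. KCTD12, an auxiliary subunit of GABA-B receptors (1.15 ± 0.31), lost its call without DMSO replicate 2 or 3 (edgeR adjusted p = 0.0672 and 0.0552). KLF14, a Kruppel-like repressor (1.04 ± 0.24), LENG9 (1.07 ± 0.11) and RRS1, a ribosome assembly factor (0.97 ± 0.08), completed the group with AL354822.1, RIMBP3 and RIMBP3B. AL354822.1, on an unplaced scaffold, was at 5.73 to 6.69 CPM in DMSO and 15.3 to 16.8 CPM after auxin (1.40 ± 0.09, SE; edgeR adjusted p = 2.57e-05).

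RIMBP3 and RIMBP3B, relatives of the RIM-binding proteins and known from developing sperm, are near copies on chromosome 22: their transcripts differ at 14 of 6105 bases (99.8% identity). Their separate values depend on how the authors' estimate divided shared reads, although both rose. The deposited posterior SD, the estimate's own uncertainty, was over 10% of the count in some library for 18 single-exon genes, and of the 16 that were tested 6 were higher and none lower. Without them, 68 genes were higher and 38 lower. AMIGO3, a leucine-rich repeat membrane protein, had the highest log2 fold change of the single-exon genes (5.75 ± 0.49, SE), from 12.9, 9.96 and 11.03 expected counts to 1725, 293 and 243. Of its 2862 bases, 2852 lie in exons of GMPPB, a sugar nucleotide enzyme on the same strand that was not called (log2 fold change -0.19, edgeR adjusted p = 0.272). The rise of AMIGO3 is therefore uncertain, since reads could belong to either gene.

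Falls were led by SPIN4 and AJM1. SPIN4, a spindlin that reads histone marks and lies on the X chromosome, was at 39.4, 40.3 and 39.9 CPM in DMSO and 18.9, 17.9 and 16.2 CPM after auxin. The groups were far apart relative to their spread (log2 fold change -1.17 ± 0.07, SE; edgeR adjusted p = 2.08e-05). AJM1, a protein of apical cell junctions, fell from 2.54, 1.68 and 1.97 CPM to 0.568, 0.335 and 0.307 CPM (-2.33 ± 0.28, SE; adjusted p = 0.000429). Of its 4387 bases, 57 lie in exons of PHPT1, a phosphatase on the same strand. PROB1 fell from 3.72, 2.85 and 3.20 CPM to 1.51, 1.03 and 1.35 CPM (-1.33 ± 0.18, SE; adjusted p = 0.000749). Of the 4 GC-rich single-exon genes lower at least 2-fold, AJM1 and PROB1 are joined by ADRA2B, an adrenergic receptor (-1.87 ± 0.28), and SOWAHA, an ankyrin repeat protein (-1.63 ± 0.21, named after its values were seen), both below 1 CPM in every library.

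The other falls by the naming rule ran from -0.99 to -0.74 on the log2 scale. OTUD1, a deubiquitinase, went from 10.4, 10.6 and 9.80 CPM to 5.70, 5.85 and 4.78 CPM (-0.92 ± 0.10, SE; edgeR adjusted p = 0.000311). FZD1, a Wnt receptor, fell from 9.84, 7.62 and 8.55 CPM to 5.62, 4.75 and 4.65 CPM (-0.79 ± 0.13, SE; adjusted p = 0.00183), with no overlap of the groups. CLDN23, a tight junction claudin (-0.78 ± 0.11), MAGEE1 (-0.91 ± 0.11) and C6orf47 (-0.77 ± 0.08) were also lower in every auxin library than in any DMSO library. With offsets corrected for GC content CLDN23 was at -0.17 and no longer called (edgeR adjusted p = 0.3). CTAGE4 (-0.88 ± 0.17) and CTAGE15 (-0.82 ± 0.14) belong to a family of retrocopied genes on chromosome 7, and CTAGE4 differs from CTAGE8 at only 5 of 2588 bases. CTAGE8, which was lower too (-0.65 ± 0.16), shares reads with it, so these are not independent observations. INAFM1 (-0.74 ± 0.22, 71.6% GC) was not called without DMSO replicate 1 or 3 or without auxin replicate 2 or 3 (adjusted p from 0.0516 to 0.0885). With offsets corrected for GC content it turned to 0.39 (adjusted p = 0.0338).

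**Figure D3:**
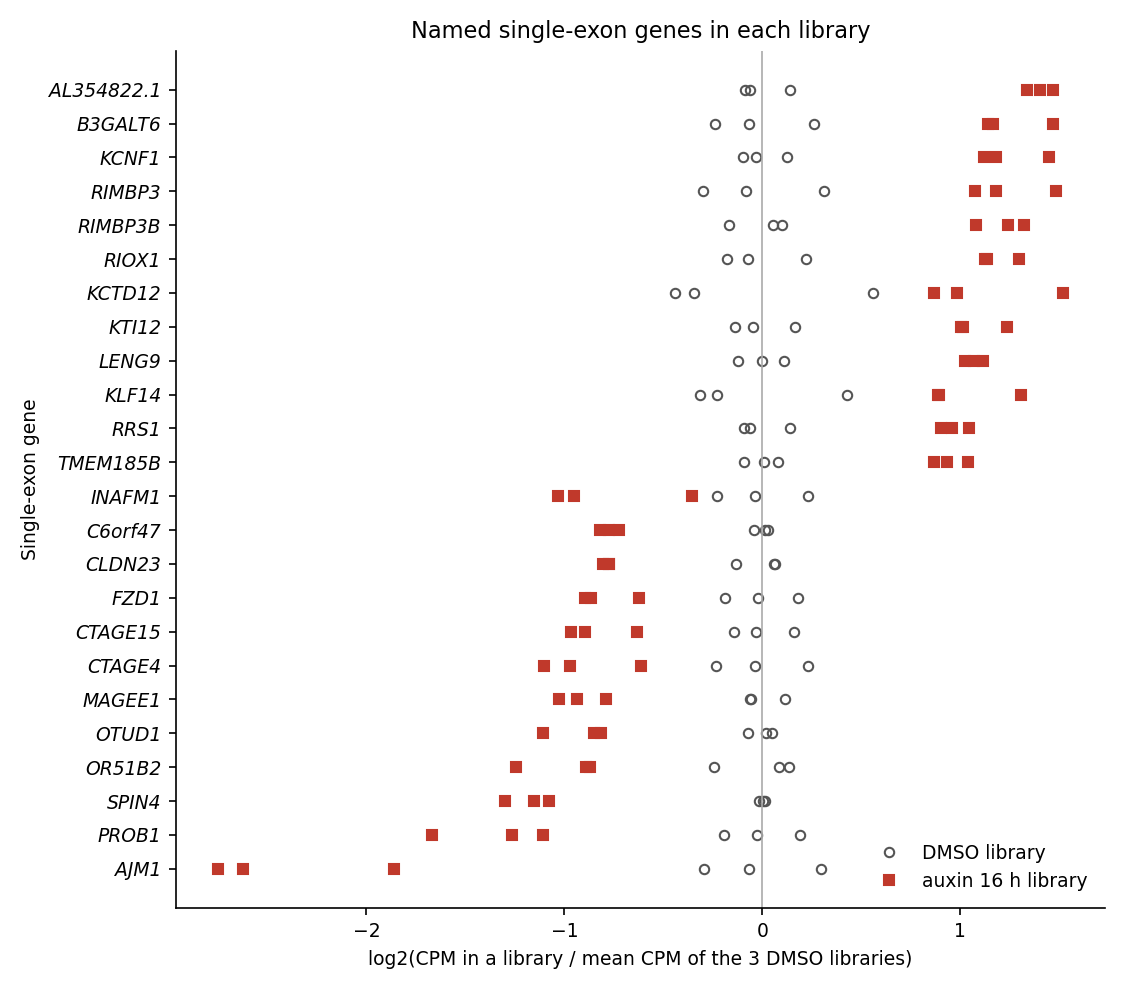
Each library's CPM relative to the mean of the 3 DMSO libraries (horizontal axis, log2 scale) for the 12 single-exon genes with the largest rises and the 12 with the largest falls under the naming rule. Open circles are DMSO libraries and filled squares auxin libraries. The auxin squares of each gene lie on one side of its DMSO circles, because the rule asked for that; the 3 DMSO circles of SPIN4 nearly coincide.

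Members were also sorted into protein families by symbol, most of them with few genes. The shares to set beside each family count, here and below, are 25.4% higher and 26.9% lower among all tested genes. Of 26 tested G protein-coupled receptors, 2 were higher and 7 lower, with a median log2 fold change of 0.04. The lower share, 26.9%, equals that of all tested genes, and the higher share was 7.69% against 25.4%. The lower ones included OR51B2, an olfactory receptor gene near the beta-globin cluster that went from 4.11 to 5.35 CPM in DMSO to 2.06 to 2.67 CPM after auxin (-0.99 ± 0.15, SE; edgeR adjusted p = 0.00146). OR51B2 lies inside OR51B5 and other genes on the same strand, outside their exons. OR51B5, the highest of these by mean CPM, was at 71.3 CPM in mean after auxin. It was lower too (log2 fold change -0.51, edgeR adjusted p = 0.000722). Of the others, HBG2 was lower, and HBE1 and AC104389.4 were not called. The part of reads from these enclosing genes in the fall of OR51B2 was not tested. OR51B4, the neighbour of OR51B2, was not called (0.24 ± 0.11, SE; adjusted p = 0.111, and adjusted p = 0.00575 with the replicate block). Of 4 claudins and connexins 2 were lower, of 4 frizzled receptors FZD1 alone was, and of 4 MAGE relatives 2 were lower; none of these 12 was higher. FZD7, the frizzled gene with the highest mean TPM of the family, was not called (-0.04 ± 0.10, SE; adjusted p = 0.79). CLDN34 (-1.62 ± 0.45) fell from 0.0442 to 0.0567 CPM to 0.00928 to 0.0271 CPM, but it met the count minimum only through the DMSO libraries, so its direction was fixed by that minimum, and DESeq2 did not call it (adjusted p = 0.0581).

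All 3 tested protocadherins, adhesion molecules of the beta cluster, were higher, and so were both ion channel genes and 2 of 3 CEBP factors. These are small families, and 25.4% of all tested genes were higher. PCDHB13 went from 0.530 to 0.707 CPM in DMSO to 0.799 to 1.12 CPM after auxin (0.65 ± 0.19, SE), but PCDHB13 and PCDHB7 (0.96 ± 0.33) each lost the call without some library. CEBPD, a factor of inflammatory signalling (0.46 ± 0.16, SE; edgeR adjusted p = 0.0405), did so too. CEBPB was at 17.6 to 21.6 CPM in DMSO and 20.3 to 26.6 CPM after auxin, overlapping ranges, and was not called (log2 fold change 0.24, edgeR adjusted p = 0.158, and adjusted p = 0.000932 with the replicate block). With offsets corrected for GC content its log2 fold change was 1.16 (adjusted p = 5.86e-06). Of 9 genes sorted by symbol as mitochondrial or metabolic, 5 were higher (55.6%) and none lower. One of them, MOCS3, acts in molybdenum cofactor synthesis (0.64 ± 0.07, SE; edgeR adjusted p = 0.000272). Another, BLOC1S4, belongs to a complex of lysosome-related organelles rather than to metabolism (0.60 ± 0.13, SE; adjusted p = 0.00737, and not called with library size alone, adjusted p = 0.0552).

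Of 12 forkhead factors, 6 of them FOXD4 and its near copies, 1 was called (8.33%, against 52.3% of all tested genes). It was FOXD2 (-0.44 ± 0.11, SE; edgeR adjusted p = 0.0117). It turned to 0.42 with GC-corrected offsets (adjusted p = 0.0535). FOXC1, a forkhead factor of mesenchyme and eye development and the family's most abundant member by TPM, was at 59.0 to 64.0 CPM in DMSO and 61.7 to 68.8 CPM after auxin (adjusted p = 0.282, and adjusted p = 0.0174 with the replicate block). Of 21 other DNA- and RNA-binding proteins 5 were higher (23.8%, near the 25.4% of all tested genes) and none lower (against 26.9%). Of 7 ubiquitin enzymes 1 was higher and 3 lower. UBQLN2, a ubiquitin-binding shuttle factor, was not called (-0.13 ± 0.07, SE; adjusted p = 0.168, and adjusted p = 0.00269 with the replicate block).

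Sorting by role across families gave groups that were put together after values had been seen, so their counts support nothing further. Of 7 genes of ribosomal RNA and tRNA processing, 5 were higher and none lower: RRS1, RIOX1, KTI12, EXOSC6, a subunit of the RNA exosome (0.64 ± 0.05, SE), and DDX28, a mitochondrial ribosome helicase (0.85 ± 0.11). EXOSC6 was at 43.9, 41.8 and 41.4 CPM in DMSO and 66.8, 66.0 and 65.1 CPM after auxin. All 4 DNA repair genes were higher, from FANCF of the Fanconi anaemia core complex (5.23 to 5.88 CPM against 9.72 to 10.7 CPM) to HUS1B, at under 0.1 CPM. Each of the rest lies inside another gene on the same strand, outside its exons. HUS1B lies in EXOC2 (70.4 CPM in mean in DMSO and 82.7 CPM after auxin, called higher) and RPA4 in DIAPH2 (67.4 and 76.8 CPM, not called). NSMCE3 lies in FAM189A1 (0.0290 and 0.0859 CPM, called higher). The part of reads from these enclosing genes was not tested. Of 7 genes of splicing, 3′ ends and RNA binding 2 were higher and none lower. RRAGA, a Rag GTPase that brings mTORC1 to the lysosome, rose from 34.4 to 38.1 CPM to 55.6 to 63.2 CPM (0.70 ± 0.07, SE; edgeR adjusted p = 0.00018), and FEM1A, a substrate receptor of a ubiquitin ligase, from 45.3 to 48.7 CPM to 78.6 to 81.7 CPM (0.75 ± 0.05, SE; adjusted p = 3.56e-05).

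Per length, most single-exon genes were expressed at low levels. TPM is the abundance after division by effective transcript length, and the median of the mean TPM was 0.763 over the 257 genes, against 8.49 over genes with 2 or more exons that passed the same minimum. Of the 257, 37 had a mean of at least 10 TPM, 84 from 1 to under 10, and 136 below 1. The median exonic length was 2370 bases. The 6 highest were AL034430.2, at 283 TPM, SFN at 236 TPM, PCBP1 at 135 TPM, SF3B5 at 79.7 TPM, KRTAP2-3 at 43.9 TPM and UTP3 at 34.8 TPM. None of these 6 was called.

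The level of AL034430.2 rests on a single exon of 192 bases that lies wholly within exons of MKKS, a chaperonin-like gene, and of AL034430.1, both on the same strand. AL034430.2 was at 7.39 to 11.4 CPM in DMSO and 9.62 to 16.0 CPM after auxin. MKKS was not called (log2 fold change -0.13, edgeR adjusted p = 0.245), while AL034430.1 was at 0 CPM in each DMSO library and at 3.28 ± 0.74 CPM after auxin (SD, n = 3). How the authors' estimate divided reads among these 3 genes was not tested. SF3B5, a subunit of the U2 snRNP, was at 45.6, 32.0 and 34.3 CPM in DMSO and 52.7, 37.6 and 42.5 CPM after auxin (0.25 ± 0.17, SE; edgeR adjusted p = 0.257, and adjusted p = 0.000208 with the replicate block). Replicate 1 was the highest of both groups, so the groups overlap while each same-numbered pair rose. UTP3, which acts in ribosomal RNA processing, also rose in each pair, with replicate 1 the lowest of both groups, at 52.5, 66.2 and 72.3 CPM against 64.2, 86.1 and 83.5 CPM (adjusted p = 0.143, and adjusted p = 0.000114 with the replicate block). KRTAP2-3, a hair keratin-associated protein, was at 26.3 to 47.0 CPM in DMSO and 21.1 to 33.9 CPM after auxin (adjusted p = 0.224, and adjusted p = 8.6e-05 with the replicate block), and AL034430.2 had adjusted p = 0.185, and adjusted p = 0.000209 with the replicate block.

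**Figure D4:**
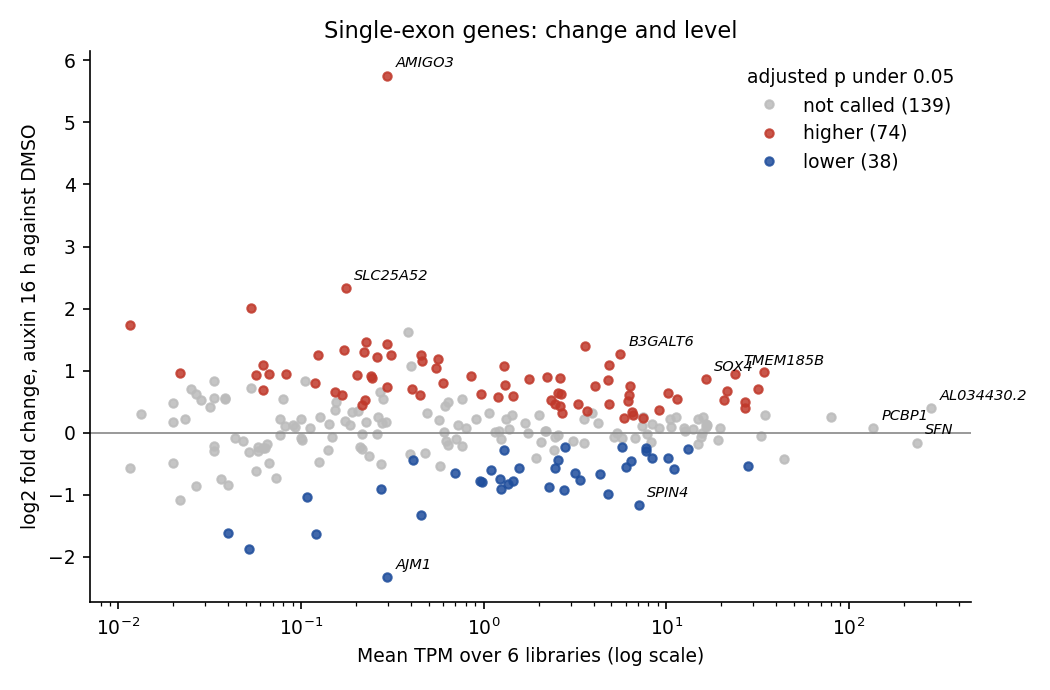
Log2 fold change after auxin (vertical axis) against mean TPM over the 6 libraries (horizontal axis, log scale) for the 251 tested single-exon genes; red points are higher, blue points lower and grey points not called. Above 100 TPM the 3 genes AL034430.2, SFN and PCBP1 are all grey, and AMIGO3 at 5.75 stands alone at the top.

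Many single-exon genes share their locus with another gene. On the same strand 64 of the 257 overlap another annotated gene, on the opposite strand 78 do, and 127 overlap none. Of the 78 with a gene opposite, 31 were higher (39.7%) and 11 lower (14.1%), against 25.4% and 26.9% of all tested genes. Of the 123 tested genes with no overlap, 27 were higher (22.0%) and 23 lower (18.7%), with a median log2 fold change of 0.08. Among genes alone at their locus the share of rises was thus below that of all tested genes, and so was the share of falls. The kit kept strand, but whether counting used it is not given in the sources used here, and the part of shared or antisense reads was not tested.

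Single-exon genes inside another gene were set beside it. Of 42 that lie within a tested protein-coding gene on the same strand, 5 were higher together with it and 2 lower together with it. In 11 only the enclosing gene was called, in 6 only the single-exon gene, in 17 neither, and in 1 they went apart, so 7 of the 8 pairs in which both were called went the same way. The 2 lower pairs, OR51B2 and OR51I1, have the same enclosing gene, OR51B5, so the pairs are not independent, and their count was not tested. Where several genes enclosed a single-exon gene, the enclosing gene with the highest mean CPM was taken. The pair that went apart was GALNT4, an enzyme that starts O-linked sugar chains (log2 fold change 0.57), inside POC1B (-0.36). GALNT4 also lies inside POC1B-GALNT4 on the same strand, whose exons hold 5033 of its 5399 bases. POC1B-GALNT4 was lower (-0.84, edgeR adjusted p = 0.000172). How the authors' estimate divided reads between GALNT4 and POC1B-GALNT4 was not tested, so the rise of GALNT4 is uncertain. TIAF1 was not called (-0.08, edgeR adjusted p = 0.818) while MYO18A, the myosin around it with up to 42 exons, fell by 1.98 on the log2 scale (adjusted p = 0.000111), although 1394 bases of TIAF1 lie in exons of MYO18A. TMEM203, which overlaps the end of TPRN by 112 bases, was likewise not called (0.14, edgeR adjusted p = 0.122, and adjusted p = 0.00978 with the replicate block) where TPRN fell by 3.18 (adjusted p = 3.06e-05). KTI12 rose inside TXNDC12, which was not called (-0.29, adjusted p = 0.0851). Of its 1714 bases, 532 lie in exons of TXNDC12. Exons of AL445685.3, on the same strand and not called (0.05, edgeR adjusted p = 0.774), hold 663. How the authors' estimate divided reads among these genes was not tested, so the rise of KTI12 is uncertain.

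**Figure D5:**
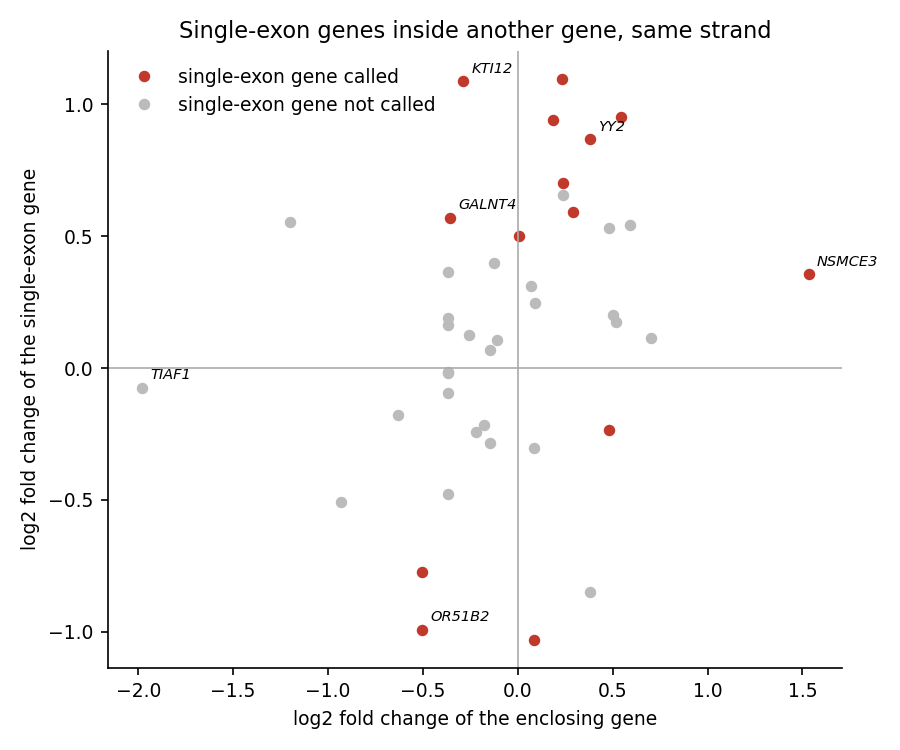
Log2 fold change of each single-exon gene (vertical axis) against that of the protein-coding gene that encloses it on the same strand (horizontal axis), 42 genes, auxin 16 h against DMSO. Red points are single-exon genes called at an adjusted p under 0.05. TIAF1 lies near 0 on the vertical axis at -1.98 on the horizontal one; enclosing genes shared by several single-exon genes form columns of points.

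Promoter and 3′ end sequences are shown because the rule used neither. The 4 windows below are the 100 bases before the RefSeq start (GRCh38.p14) of 2 genes that rose, 1 that fell and 1 that was not called. Capitals mark a GC box, GGGCGG or its reverse complement CCGCCC, or a CCAAT box in its reverse form ATTGG.
B3GALT6, chr1:1232137-1232236, plus strand: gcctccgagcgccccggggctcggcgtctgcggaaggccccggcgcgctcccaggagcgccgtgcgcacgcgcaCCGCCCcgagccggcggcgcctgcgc
TMEM185B, chr2:120223401-120223500, minus strand: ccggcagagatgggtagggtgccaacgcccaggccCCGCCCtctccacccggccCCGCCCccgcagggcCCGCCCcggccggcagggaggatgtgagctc
SPIN4, chrX:63351333-63351432, minus strand: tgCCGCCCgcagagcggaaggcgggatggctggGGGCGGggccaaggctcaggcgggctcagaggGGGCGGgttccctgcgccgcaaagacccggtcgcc
RHOB, chr2:20446974-20447073, plus strand: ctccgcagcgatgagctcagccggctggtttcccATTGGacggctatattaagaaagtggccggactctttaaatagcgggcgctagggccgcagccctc
For windows from 250 bases before to 50 after the start, 187 single-exon genes were matched to a RefSeq entry. The 187 include a window under the symbol MKKS, a gene of up to 6 exons that is not in the set. TATAAA on either strand was in 13.9% of the 187, against 9.37% of 14896 protein-coding genes and 11.95% of all 27305 windows. CCAAT was in 39.0%, against 36.4% and 35.7%. GGGCGG, a motif added after the others were fixed, was in 59.4%, against 59.5% and 44.6%. Among genes called higher and lower, TATAAA was in 8.62% of 58 and 9.68% of 31, CCAAT in 37.9% and 35.5%, and GGGCGG in 60.3% and 74.2%. These shares are descriptions of letters, not of bound factors, and none was tested.

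The last 30 bases of 4 transcripts (GENCODE release 29, GRCh38, 5′ to 3′) follow, with capitals at the polyadenylation signal AATAAA or its variant ATTAAA.
SFN, chr1:26864428-26864457, plus strand: cctctcAATAAAgttcccctgtgacactcc
KTI12, chr1:52032103-52032132, minus strand: tcctctAATAAAatcttttaaaatagtcta
B3GALT6, chr1:1235012-1235041, plus strand: ctaagacATTAAAtttcatatcagaacaaa
PCBP1, chr2:70089174-70089203, plus strand: tttgaaaaagctgggaattgctgtcttaaa
PCBP1 has neither in this window. In the last 40 bases, AATAAA was in 51.8% of 255 single-exon genes and in 60.0% of 13983 genes with 2 or more exons, and either form was in 63.1% and 73.9%. Either form was in 60.3% of the 73 higher and 71.1% of the 38 lower single-exon genes with a sequence.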

How the data were processed

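RNA-seq of 6 HCT116 libraries was used, 3 after 16 h of auxin and 3 after DMSO, grouped by their labels. Per the file headers, the authors deposited for each library an expected count per gene, an estimated and unnormalized read number, a TPM, normalised for effective length, and the posterior SD of each count. The submitters' processing notes name bcl2fastq 2.20, STAR, DESeq2 and the builds GRCh38 and hg38, with no roles; the use of strand in counting is not given in the sources used here. All 58780 human gene IDs match GENCODE release 29, which gave exons, types and coordinates; 746 other IDs, at most 0.00111% of a library's counts, were left out.

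Expected counts were rounded and tested with edgeR 4.0.16 in R 4.3.3 (filterByExpr, TMM factors, glmQLFit, glmQLFTest, Benjamini-Hochberg over 19725 genes). The filter left 6 of the 257 genes untested. CPM is the rounded count over the TMM-scaled library total, and SE is the log2 fold change over the root of F. Tested on simulated counts of 19725 genes, 200 of them changed, 53% of 2-fold and 86% of 4-fold changes were recovered and 4.79% of 146 calls were unchanged genes. In the data 52.3% of the tested genes were called, a far larger share than was changed in the simulation. These rates therefore hold for the simulated setting and need not hold for the data. Replicates of a group differed by more than sampling noise (chi-square per degree of freedom from 37.1 to 610). The labels call the replicates biological, and p-values measure the spread between these libraries.

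Same-numbered libraries deviated together from their group means (correlations across genes 0.651, 0.265 and 0.276 for numbers 1, 2 and 3), each over 0.1, and the numbers were taken as pairs for that reason. The crossed pairs of numbers 2 and 3 correlated as well (0.312 for DMSO 3 with auxin 2 and 0.180 for DMSO 2 with auxin 3), so the data set number 1 apart but do not tell 2 from 3. The labels give only the shared numbers.

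Named genes were the 12 largest rises and 12 largest falls among called genes with a mean of at least 1 CPM and groups that do not overlap, the 6 with the highest mean TPM, and in each family the gene with the highest mean TPM and the called gene with the largest change. Others named were chosen after their values were seen. The members, the lists and the rules were chosen with earlier results of these data known. Alternatives used DESeq2 1.42.0 (size factors or Wald test), upper-quartile factors, library size, other filters, limma 3.58.1 on log2(TPM + 1) or log2(TPM + 0.1), the replicate block, GC-corrected offsets, fewer libraries and fewer members.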

Additional observations from a re-analysis of the deposited data

How the results depend on the processing

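Against 74 higher and 38 lower single-exon genes and a median log2 fold change of 0.16, upper-quartile factors gave a median of 0.28 and library size alone 0.067, while the median of all genes moved from 0.02 to 0.15 and -0.06, so most of that shift was common to all genes. Higher and lower calls were 89 and 26 with upper-quartile factors (77.4% of the calls higher, against 66.1%) and 52 and 40 with library size alone (56.5%). Limma on log2(TPM + 1) called 12 higher and 9 lower (median -0.00086), and on log2(TPM + 0.1) 11 and 11 (median -0.00087); the cause of the lower counts was not tested. GC-corrected offsets gave 112 higher genes and a median of 0.36, and with the replicate block 135 and 0.36. Leaving out each library in turn gave 56 to 77 higher, 28 to 45 lower and medians of 0.10 to 0.20. The 123 tested genes that overlap no other gene, an alternative chosen after seeing the data, gave 27 higher, 23 lower and a median of 0.079 from fewer genes. Over the 18 alternative fits, the median of GC-rich single-exon genes minus that of GC-rich genes with 2 or more exons stayed between 0.36 and 0.82 (0.75 as reported), and below 45% GC between -0.07 and 0.08.

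With the replicate block, which paired the libraries by number, 103 genes were higher and 54 lower; 9 of 53 named genes gained a call, each given above, and the block changed no other call among them. Among named genes called before or after, signs turned for 5, with GC-corrected offsets, without and with the block: FOXD2 (0.42 and 0.42), INAFM1 (0.39 and 0.41), RHOB (0.31 and 0.31), SFN (0.60 and 0.59) and MGAT2 (-0.10 in both, called with the block only). Uncalled genes near 0 also changed sign under other scalings, such as CLDN3 (-0.06), MGAT2 (-0.03) and PCBP1 (-0.02) with library size alone and FZD7 (0.09), KLHL9 (0.11) and RHOB (0.07) with upper-quartile factors. GC-corrected offsets centre genes of like GC content on the same mean. The cause of these changes of sign was not tested. Of 37 named called genes, 30 kept the call without any single library; CEBPD, CLDN34, INAFM1, KCTD12, MAGEF1, PCDHB13 and PCDHB7 did not.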

Other observations

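Bitter taste receptors, small single-exon receptor genes that lie mostly in one cluster on chromosome 12, were measured at low levels. Of 11 tested, 1 was higher (TAS2R3, log2 fold change 0.70 ± 0.24, SE; edgeR adjusted p = 0.0436) and 1 lower (TAS2R10, -1.03 ± 0.35; adjusted p = 0.0420). Both lie inside another gene on the same strand, outside its exons. TAS2R3 lies in SSBP1 (147 CPM in mean in DMSO and 173 CPM after auxin, not called). TAS2R10 lies in PRH1 (0.559 and 0.594 CPM, not called). The part of reads from these enclosing genes was not tested. In the 8 on chromosome 12 the median log2 fold change was -0.02. The 6 genes FOXD4 and its near copies, forkhead factors spread by segmental duplication, gave no call, with a median of 0.11. The 4 SOWAH genes, ankyrin repeat proteins, had a median of -0.51: SOWAHA and SOWAHC (39.0, 40.1 and 42.2 CPM in DMSO against 32.2, 34.5 and 31.9 CPM after auxin) were lower by edgeR's test, and SOWAHB (-0.10 ± 0.14) and SOWAHD (-0.73 ± 0.32; adjusted p = 0.0959, and adjusted p = 0.0484 with the replicate block) were not called. On the X chromosome, 17 single-exon genes were tested, 7 higher (41.2%) and 4 lower (23.5%), against 25.4% and 26.9% of all tested genes. These groups were picked after values had been seen.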
